A study of Homo sapiens with 36 samples.

Results

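Ribosomal protein genes encode the proteins of the cytosolic ribosome. They were taken by symbol from the RefSeq gene table (RPL or RPS and a number, with RPLP0, RPLP1, RPLP2 and RPSA, and without RPS6K genes and symbols ending in L or in L and a number). The rule found 79 genes. The 2 on chromosome Y were not assessed, which left 77 of 19974 protein-coding genes on chromosomes 1 to 22 and X, 46 of the large and 31 of the small subunit. A gene counted as having a peak in a library when the summit of a peak fell inside the gene or at most 1 kb away.

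A ribosome joins a small subunit, which reads the mRNA, to a large subunit, which forms peptide bonds, and erythroid progenitors make ribosomal proteins in large amounts. Loss of 1 copy of certain ribosomal protein genes causes Diamond-Blackfan anaemia, a failure of red cell formation, and reduced translation of the erythroid regulator GATA1 has been tied to that disease. GATA2, the related zinc finger factor of stem and progenitor cells, binds DNA words built on the letters GATA. The T354M change lies in a zinc finger of GATA2 and is found in families with myeloid leukaemia.

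GATA2 on chromatin was measured by CUT&Tag, in which an antibody directs a transposase to the chromatin it recognises, in HUDEP-2, a human line of immortalized erythroid progenitors. All cells carried a lentivirus and had been sorted for GFP. They were grown with erythropoietin, stem cell factor, doxycycline and dexamethasone. Wild-type cells with the empty vector, and GATA2-low cells (genotype GATA2+/-) with the empty vector, HA-GATA2 or HA-GATA2(T354M), were assayed with anti-GATA2, and the 3 kinds of GATA2-low cells also with anti-HA. The wild-type cells shared the vector but not the GATA2+/- genotype, and no anti-HA library of them was analysed here. Each of these 7 groups had 4 libraries, and the labels do not say whether these came from separate cultures, so the p-values below measure only the spread between libraries, which may be technical. They also do not say how many clones the GATA2-low line represents. Replicate 1 of the empty vector in GATA2-low cells (anti-GATA2) is titled GATA2 low while its genotype field says wild-type, and results without it are given below.

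The lists held 6555 to 9121 peaks in the wild-type group, 1823 to 3648 in the GATA2-low empty-vector group, 7064 to 12171 with HA-GATA2 and 2779 to 6311 with HA-T354M (anti-GATA2). With anti-HA they held 1912 to 6065, 426 to 744 and, for the untagged empty vector, 1 to 6 peaks. Read totals are unknown. The estimated background, a measure of relative depth in fragments per window, was 0.222 to 0.302 for wild-type and 0.153 to 0.213 in the empty-vector anti-GATA2 libraries, and 0.356 to 0.587 in the libraries of the tagged proteins. Of 16 erythroid marker loci, searched with 10 kb on either side, 10.8 ± 0.50 (SD, n = 4) had a peak per wild-type library and 9.50 ± 1.00 per empty-vector anti-GATA2 library. Of 8 lymphoid loci, 1.75 ± 0.50 and 0 did, and of 8 neutrophil and monocyte loci, 1.5 ± 0.577 and 0.25 ± 0.50. No share of all genes with a 10 kb window stands beside the marker counts, here and below. They thus do not compare marker loci with other genes.

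The 250 bases before the gene start are shown for the 4 ribosomal protein genes whose start-proximal site was found in the most libraries and for RPS19 and RPS14, the genes of Diamond-Blackfan anaemia and of the 5q- syndrome that the text follows. The windows are from RefSeq on GRCh38.p14, read 5′ to 3′ on the gene's strand, and capitals mark the letters GATA or their reverse complement TATC. In order they are chr19:48619179-48619428 (minus strand), chr6:132814319-132814568 (plus), chr9:124861958-124862207 (minus), chr6:35468151-35468400 (plus), chr19:41860005-41860254 (plus) and chr5:150449740-150449989 (minus).
RPL18: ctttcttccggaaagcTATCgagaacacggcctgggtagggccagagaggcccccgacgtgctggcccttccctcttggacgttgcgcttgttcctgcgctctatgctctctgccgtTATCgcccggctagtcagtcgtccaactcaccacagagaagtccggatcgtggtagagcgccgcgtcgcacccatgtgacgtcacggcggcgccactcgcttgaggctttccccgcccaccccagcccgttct
RPS12: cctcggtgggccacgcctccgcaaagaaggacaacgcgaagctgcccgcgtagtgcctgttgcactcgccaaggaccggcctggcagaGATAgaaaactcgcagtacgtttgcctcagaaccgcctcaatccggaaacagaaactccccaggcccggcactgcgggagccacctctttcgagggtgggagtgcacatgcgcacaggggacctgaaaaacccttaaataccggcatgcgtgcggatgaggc
RPL35: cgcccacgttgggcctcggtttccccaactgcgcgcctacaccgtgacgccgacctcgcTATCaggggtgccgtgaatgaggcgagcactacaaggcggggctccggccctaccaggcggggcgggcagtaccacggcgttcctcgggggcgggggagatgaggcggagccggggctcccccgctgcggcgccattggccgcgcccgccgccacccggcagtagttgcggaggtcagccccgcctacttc
RPL10A: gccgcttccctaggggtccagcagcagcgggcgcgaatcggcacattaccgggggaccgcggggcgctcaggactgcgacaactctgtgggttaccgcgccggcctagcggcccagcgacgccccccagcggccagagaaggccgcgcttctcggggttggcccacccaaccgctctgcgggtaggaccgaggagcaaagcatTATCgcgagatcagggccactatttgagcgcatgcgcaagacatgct
RPS19: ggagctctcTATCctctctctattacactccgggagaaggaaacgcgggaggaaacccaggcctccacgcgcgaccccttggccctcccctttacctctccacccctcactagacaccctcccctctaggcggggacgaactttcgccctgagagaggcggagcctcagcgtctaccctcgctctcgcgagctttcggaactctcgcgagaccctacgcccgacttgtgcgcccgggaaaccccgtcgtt
RPS14: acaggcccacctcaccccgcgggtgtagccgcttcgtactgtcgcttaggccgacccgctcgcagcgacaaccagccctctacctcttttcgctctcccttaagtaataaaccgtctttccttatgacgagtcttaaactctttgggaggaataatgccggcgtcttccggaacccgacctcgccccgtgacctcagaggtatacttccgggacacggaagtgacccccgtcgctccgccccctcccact
The GATA word of RPS12 lies in AGATAG and starts 162 bases before the gene start, and its centre is 23 bp from the median peak summit of that site. The TATC word of RPL35, in CTATCA, starts 191 bases before the gene start and is 27 bp from the median summit. RPL18 has TATC words 234 and 133 bases before its start, and the first is 22 bp from the median summit. In RPL10A the word starts 47 bases before the gene start, 19 bp from the median summit. RPS19 has 1 word in its window, 102 bp from its median summit. That summit is 341 bp upstream of the start, outside the printed 250 bases, so the bases around it were not searched. A word closer to the RPS19 summit is thus not excluded. The RPS14 window has no such word.

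GATA or TATC was present in the promoter windows (250 bases before to 50 after the start) of 38 of the 62 ribosomal protein genes with a listed start, or 61.3%, against 43.1% of 15812 protein-coding promoters. Among the 21 ribosomal protein genes with a peak within 1 kb of the start the share was 57.1%, and among the other 41 it was 63.4%. The longer words (AGATAA with its variants AGATAG or TGATAA and also TGATAG), searched on both strands and overlapping the first search, were in 16.1% of the ribosomal protein windows and 19.6% of all windows. They were in 14.3% of the windows with a start peak and 17.1% of those without. The word CGGAAG, the core of ETS factor sites, was in 62.9% of the ribosomal protein windows and 25.6% of all windows, and AAGATGG, a core of YY1 sites, in 12.9% and 6.4%. The TATA word TATAAA was in 8.06% and 9.64%. These matches describe letters in the windows only.

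Across the 28 libraries, 32 ribosomal protein genes (41.6%) had a peak in at least 1 library, against 33.6% of all protein-coding genes, and 45 had none. By subunit these were 20 of 46 large-subunit and 12 of 31 small-subunit genes. The ribosomal protein genes are short, with a median span of 5011 bp against 24170.5 bp for all genes, so their search window is smaller. At gene starts alone, 21 of 62 (33.9%) had a peak within 1 kb in some library, against 19.0% of all starts. The genes fell into 13 with a peak in 4 or more libraries, 11 with a peak in 2 or 3, and 8 with a peak in 1. RPL13A, which is also known as a regulator of inflammatory translation, and RPLP0, the base of the acidic stalk, had none in any library.

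**Figure D1:**
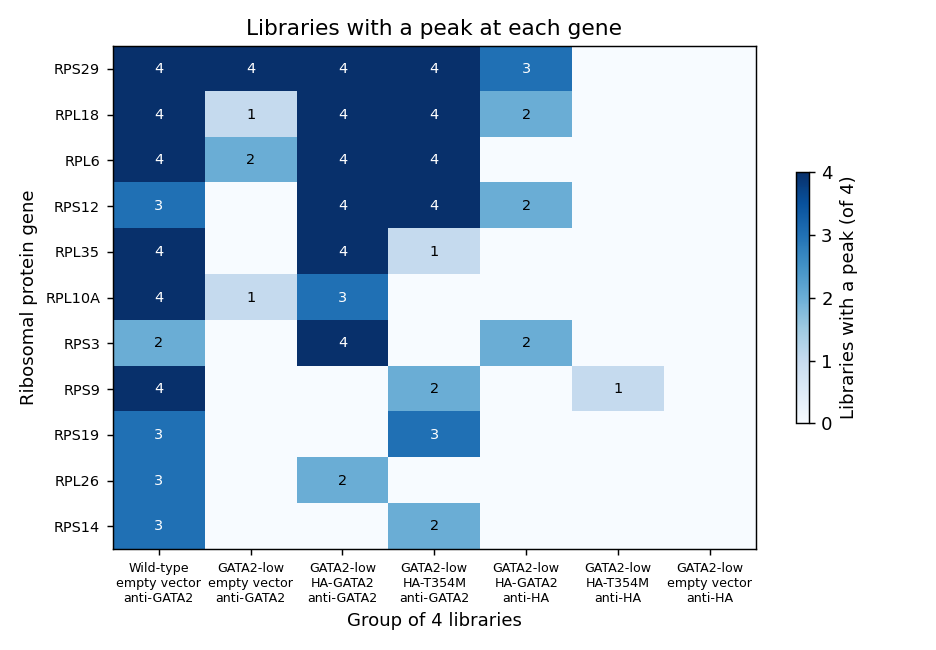
Number of libraries, of 4, with a peak at each of the 11 ribosomal protein genes that had one in at least 5 libraries (rows, ordered by their total) in each of the 7 groups (columns); blank cells are 0. RPS29 has a peak in all 4 libraries of each of the 4 anti-GATA2 groups, and all 11 genes have a peak in at least 1 wild-type library.

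The 158 peaks at these genes merged into 37 sites, 11 of them from a single library. Another protein-coding gene lay within 1 kb of the summit at 10 sites, where the data do not tell which gene a peak belongs to. Of the 144 peaks at genes with a listed start, 92 (63.9%) had the summit within 1 kb of it, and 88 of these were upstream. The median position of the 92 was 162 bp upstream. The authors' fold enrichment over the local background was 2.76 to 30.1, with a median of 7.32.

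**Figure D2:**
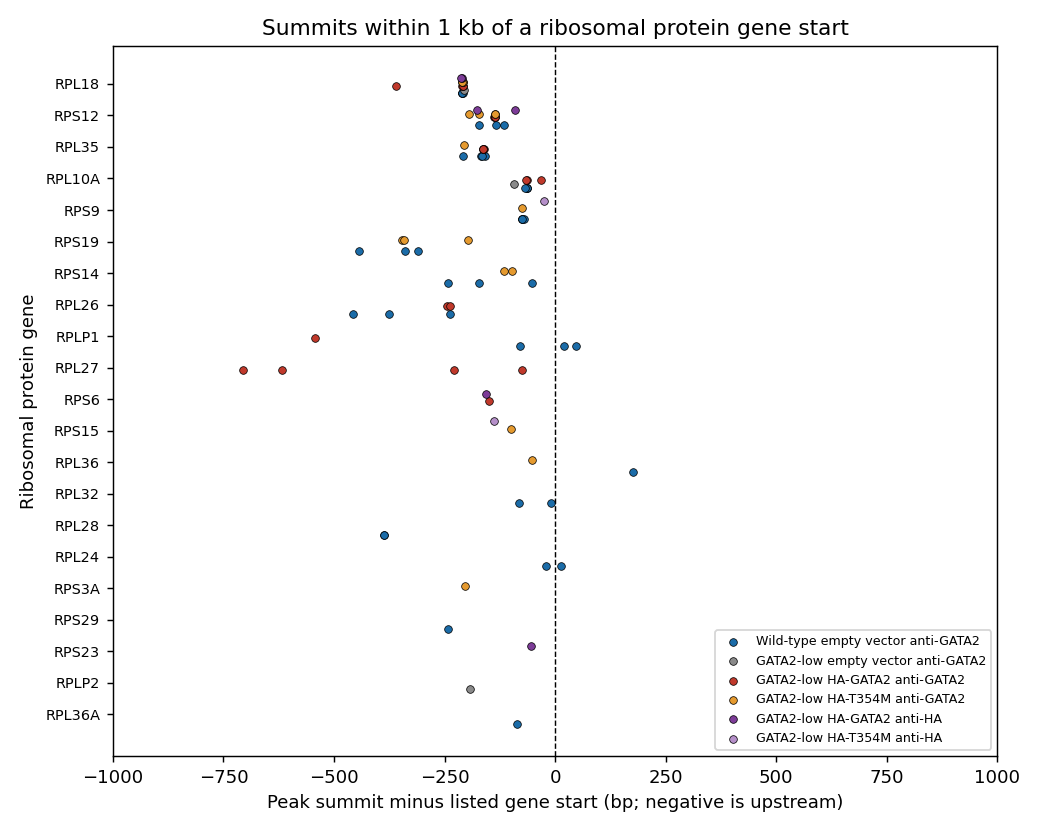
Distance in bp from the listed gene start to each peak summit within 1 kb (x axis, negative is upstream) for 21 ribosomal protein genes (y axis), with 1 point per peak coloured by group. 88 of the 92 points lie upstream, and the summits of RPL18, RPS12, RPL35 and RPL10A line up across groups.

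The site found most often lay in the body of RPS29, a small-subunit protein mutated in Diamond-Blackfan anaemia (chr14:49594393-49595145, 3916 bp downstream of the listed start). It had a peak in 19 libraries. The fold over local background was 12.3, 16.0, 28.6 and 25.4 in wild-type and 7.88, 8.15, 11.7 and 9.87 in GATA2-low cells with the empty vector. With HA-GATA2 it was 25.3, 28.4, 26.5 and 30.1, and with HA-T354M 8.51, 14.9, 12 and 14.5 (anti-GATA2). The wild-type and HA-GATA2 folds were all above the empty-vector folds, and the HA-T354M folds overlapped with both the empty-vector and the wild-type folds. With anti-HA, 3 of 4 HA-GATA2 libraries had a peak there, with folds of 10.4, 8.46 and 12.2, and 0 of 4 HA-T354M libraries did. The fold of a peak depends on the depth, the caller's scaling and the local background of its own library. These values thus describe the peaks and were not tested between groups.

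RPL18, a large-subunit protein also mutated in Diamond-Blackfan anaemia, had a site 210 bp upstream of its start (chr19:48619184-48619690), within 1 kb of SPHK2. A peak was in 4 of 4 wild-type, 1 of 4 empty-vector, 4 of 4 HA-GATA2 and 4 of 4 HA-T354M anti-GATA2 libraries, and in 2 of 4 HA-GATA2 anti-HA libraries. Folds were 6.41, 9.31, 11.1 and 9.95 in wild-type, 6.21 in empty-vector replicate 4, 6, 8.07, 7.88 and 8.16 with HA-GATA2, and 5.79, 3.95, 6.33 and 5.68 with HA-T354M. The local background there was 24.6 to 32.8 times the genome background in the anti-GATA2 libraries, so many fragments (30 to 123) gave moderate folds. RPL6, another large-subunit protein, had a site inside the RefSeq span of its gene but 2530 bp upstream of the listed start (chr12:112413679-112414377). A peak was there in 4, 2, 4 and 4 of 4 libraries in the same order of anti-GATA2 groups and in no anti-HA library. Folds at RPL6 were 14.9 to 18 in wild-type, 8.08 and 10.4 in empty vector, 6.73 to 14.8 with HA-GATA2 and 8.40 to 11.4 with HA-T354M. At RPL6 the wild-type folds thus lay above the folds of the other 3 groups, by a narrow margin over HA-GATA2.

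RPS12, a small-subunit protein, had a site 137 bp upstream of its start (chr6:132814214-132814608). It had a peak in 3 of 4 wild-type, 0 of 4 empty-vector, 4 of 4 HA-GATA2 and 4 of 4 HA-T354M anti-GATA2 libraries, and in 2 of 4 HA-GATA2 anti-HA libraries. Folds were 6.28, 6.71 and 5.45 in wild-type, 4.45, 5.79, 5.02 and 5.58 with HA-GATA2, and 6.23, 7.50, 6.11 and 6.4 with HA-T354M. The HA-T354M folds were all above the HA-GATA2 folds. RPL35, a large-subunit protein at the exit of the peptide tunnel and a Diamond-Blackfan anaemia gene, had a site 162 bp upstream (chr9:124862059-124862337), within 1 kb of ARPC5L. Its peak was in 4 of 4 wild-type, 0 of 4 empty-vector, 4 of 4 HA-GATA2 and 1 of 4 HA-T354M libraries. Folds were 11.4, 9.20, 8.28 and 10.5 in wild-type, 5.69, 6.41, 6.20 and 5.83 with HA-GATA2, and 6.76 with HA-T354M. The wild-type and HA-GATA2 folds of RPL35 did not overlap. The fragments at the peak, before the caller's scaling, did, with 31 to 38 in wild-type and 34 to 44 with HA-GATA2.

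RPL10A, which forms the L1 stalk of the large subunit, had a site 64 bp upstream of its start (chr6:35468019-35468645) in 4 of 4 wild-type, 1 of 4 empty-vector, 3 of 4 HA-GATA2 and 0 of 4 HA-T354M libraries. Folds were 15.6, 15.7, 14.1 and 15.2 in wild-type, 10.1 in empty-vector replicate 4, and 5.96, 14.8 and 13.3 with HA-GATA2. RPS3, a small-subunit protein at the mRNA entry, had a site inside the gene (chr11:75406124-75406695) in 2 of 4 wild-type, 0 of 4 empty-vector, 4 of 4 HA-GATA2 and 0 of 4 HA-T354M anti-GATA2 libraries. Folds at RPS3 were 7.15 and 10.2 in wild-type and 12.7, 13.3, 17.4 and 13.5 with HA-GATA2. With anti-HA it had folds of 5.26 and 5 in 2 of 4 HA-GATA2 libraries. At RPS3 all HA-GATA2 folds of the anti-GATA2 libraries thus exceeded the 2 wild-type folds.

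**Figure D3:**
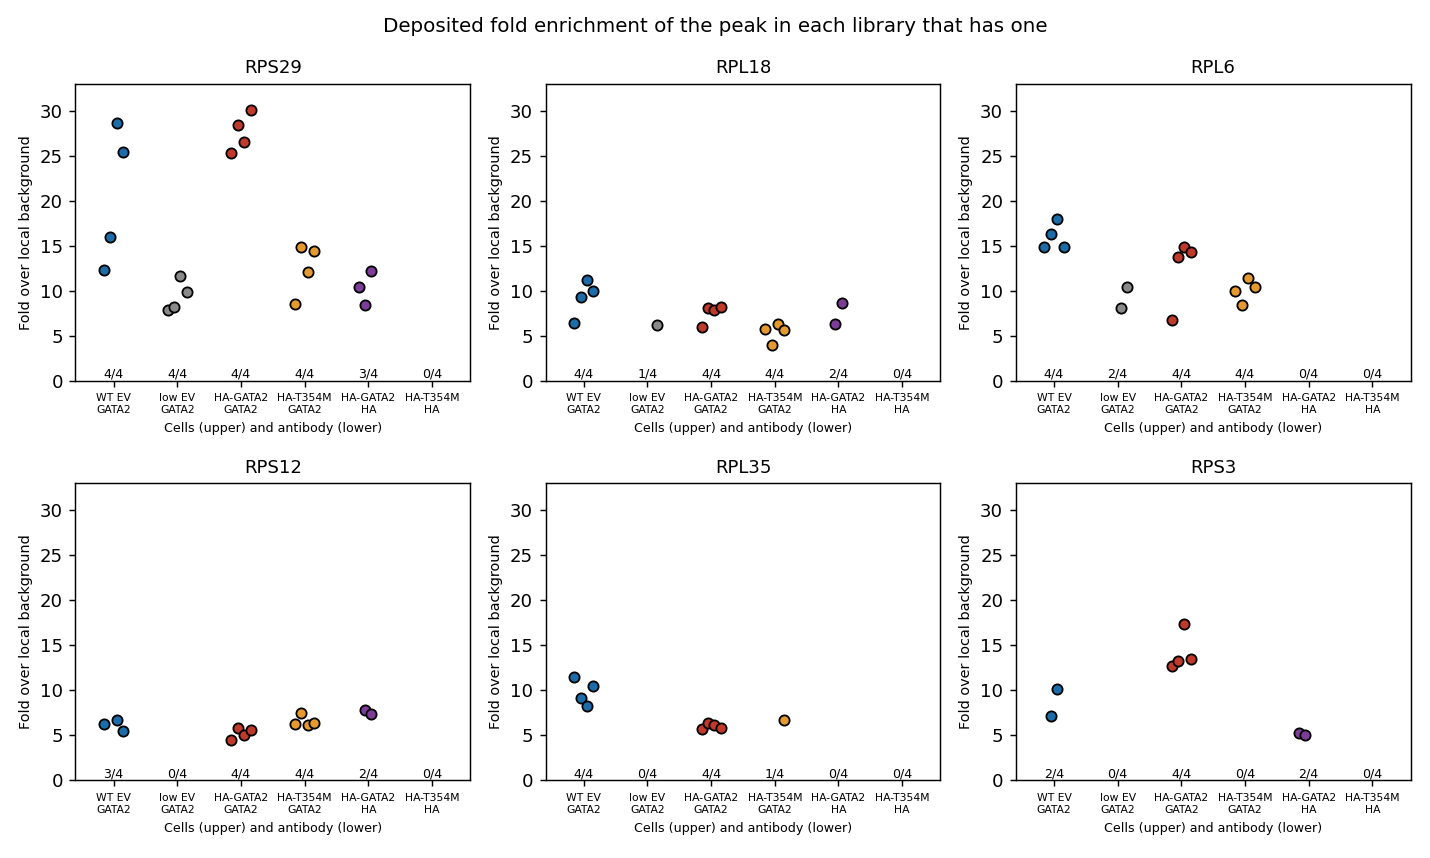
Fold over local background, as deposited (y axis, linear), of the peak at 6 ribosomal protein sites in each library that has one, by group (x axis; WT, wild-type; low, GATA2-low; EV, empty vector; the antibody is on the second line). The numbers above the axis give the libraries with a peak, and only RPS29 has a peak in all 4 empty-vector anti-GATA2 libraries.

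RPS9, also of the small subunit near the mRNA entry, had a start-proximal site (chr19:54200491-54201080) in 4 of 4 wild-type, 0 of 4 empty-vector, 0 of 4 HA-GATA2 and 1 of 4 HA-T354M libraries, and a second site 7507 bp downstream in 3 of 4 wild-type and 1 of 4 HA-T354M libraries. The start-proximal folds were 3.62, 3.39, 3.59 and 3.49 in wild-type and 3.08 with HA-T354M, and 1 HA-T354M anti-HA library had a fold of 4.54 there. The local background at the start-proximal site was 35.7 to 38 times the genome background in the wild-type libraries. Its part in these calls was not tested. The site stood low in the wild-type lists, at percentiles of 1.55 to 11.2 by -log10 q.

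RPS19, the first gene linked to Diamond-Blackfan anaemia, had a peak 341 bp upstream of its start in 3 of 4 wild-type and 3 of 4 HA-T354M libraries and in no empty-vector or HA-GATA2 library. Folds were 4.81, 5.90 and 3.88 in wild-type and 3.64, 4.08 and 4.05 with HA-T354M. RPS14, whose loss underlies the anaemia of the 5q- syndrome, had a site at its start in 3 of 4 wild-type and 2 of 4 HA-T354M libraries, with folds of 11.3, 14.1 and 5.93 and of 9.94 and 8.62. RPS9, RPS14 and RPS19 were thus found with HA-T354M and not with HA-GATA2, a pattern picked out after the values were seen and not tested. RPL5 and RPL11, which bind 5S ribosomal RNA and restrain MDM2 when ribosome assembly fails, had few peaks. RPL5 had them in 2 of 4 wild-type and 1 of 4 HA-GATA2 libraries, with folds of 11.6, 12.4 and 10.8, and RPL11 in 1 HA-GATA2 library, with a fold of 8.64. MDM2 had none.

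The first comparison set wild-type against GATA2-low cells with the empty vector, to ask which occupancy depends on the full GATA2 level. The wild-type libraries had a peak at 14, 15, 20 and 13 ribosomal protein genes, and the empty-vector libraries at 1, 1, 2 and 5. The groups did not overlap, and neither did they over all protein-coding genes, of which 17.4% to 23.6% had a peak per wild-type library and 4.93% to 9.36% per empty-vector library. In means, 20.1% of ribosomal protein genes and 19.7% of all genes had a peak in wild-type, and 2.92% and 6.37% with the empty vector. The mean numbers of ribosomal protein genes were 15.5 ± 3.11 and 2.25 ± 1.89 (SD, n = 4), a difference of 13.25 genes (exact two-sided permutation test, p = 0.0286, the smallest that 4 against 4 allows). After Benjamini-Hochberg adjustment over the 4 anti-GATA2 comparisons this was 0.0571, which does not pass 0.05. As a share of all peaks, those at ribosomal protein genes were 0.224% ± 0.0372 in wild-type and 0.0824% ± 0.0394 in empty-vector libraries (exact permutation p = 0.0286, adjusted p = 0.0571). Without empty-vector replicate 1 the differences were 12.83 genes and 0.133 percentage points, and 3 against 4 libraries cannot go below an exact permutation p of 0.0571. When the 8 lists were reduced to their 1823 highest peaks by -log10 q, the means were 1.25 and 0.75 genes (exact permutation, adjusted p = 0.838). Thinned to a common background, they were 9.53 and 2.16 genes (exact permutation, adjusted p = 0.114). With only peaks of a -log10 q of at least 15, the difference was 6.5 genes (exact permutation, adjusted p = 0.0381). Before adjustment that p was 0.0286, as in the main setting. The adjusted value fell because the HA-T354M comparison below also reached 0.0286.

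**Figure D4:**
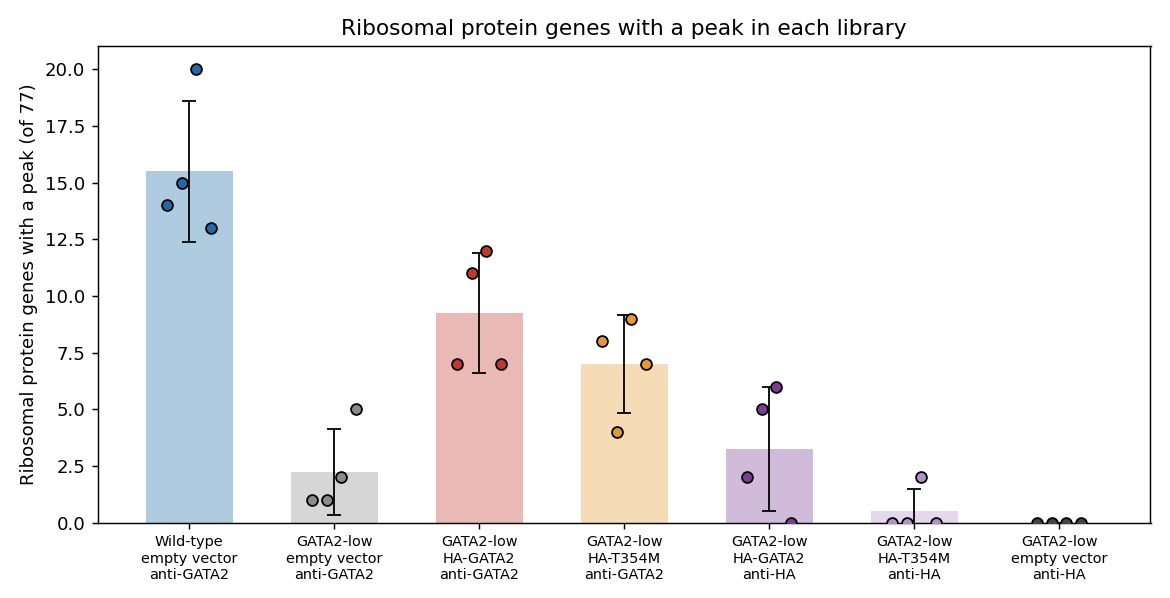
Number of the 77 ribosomal protein genes with a peak (y axis, from 0) in each library (points), with the group mean (bar) and SD (error bar, n = 4), for the 7 groups (x axis). The wild-type points (13 to 20) lie above all other points, and the GATA2-low empty-vector anti-GATA2 points lie between 1 and 5.

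RPL35 and RPS9 were among 3 ribosomal protein genes occupied in all 4 wild-type and in 0 of 4 empty-vector libraries, a pattern of 4.23% of all 19974 genes. The 3 are 3.90% of the ribosomal protein genes, close to the share of all genes. None stood the other way (0.00501% of all genes). More libraries with a peak in wild-type were found for 24 of 77 (31.2%), against 23.7% of all genes, and more in empty vector for 1, RPLP2, against 0.205%. The median difference was 0 libraries over the ribosomal protein genes and over all genes. Gene by gene, Fisher's exact test over 5529 genes called 0 genes (smallest adjusted p = 0.187), with 846 at an unadjusted p under 0.05. With 4 against 4 libraries Fisher's exact test cannot go below p = 0.0286. After adjustment it could call a gene only if a large part of all tested genes stood at 4 of 4 against 0 of 4. The absence of calls, here and in the comparisons below, thus does not show that no gene differs. Without wild-type replicate 4, or without empty-vector replicate 4, 5 ribosomal protein genes were in all libraries of the one group and none of the other. No share of all genes is given beside such counts with a library left out, here and below.

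The second comparison asked what HA-GATA2 returned to GATA2-low cells. HA-GATA2 libraries had a peak at 7, 11, 12 and 7 ribosomal protein genes (9.25 ± 2.63, n = 4), all above the 1 to 5 of the empty vector. All genes did not overlap either: 19.97% of them had a peak with HA-GATA2 and 6.37% with the empty vector, where 12% and 2.92% of the ribosomal protein genes did. At the marker loci above, HA-GATA2 libraries had peaks at 13 ± 0.816 erythroid, 2.75 ± 0.50 lymphoid and 1.25 ± 0.50 neutrophil and monocyte loci. The difference was 7.00 genes (exact permutation p = 0.0286, adjusted p = 0.0571). RPL35, RPS3 and RPS12 stood at 4 of 4 against 0 of 4, or 3.90% of these genes against 5.91% of all genes, and none stood the other way (0% of all genes). A larger number of libraries was found with HA-GATA2 for 13 ribosomal protein genes (16.9%, against 21.3% of all genes) and with the empty vector for 1 (1.30%, against 0.416%). As a share of peaks the values were 0.0921% ± 0.0208 and 0.0824% ± 0.0394 (exact permutation p = 0.686). Fisher's exact test called 0 of 5134 genes (smallest adjusted p = 0.124, 1180 genes unadjusted). Without empty-vector replicate 1 the difference was 6.58 genes. On lists of equal length the means were 1.00 and 0.75 genes, and with a -log10 q of at least 15 the difference was 4.75 genes (exact permutation, adjusted p = 0.0381). Before adjustment that p was 0.0286, as in the main setting.

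The third comparison asked the same of HA-T354M. Its libraries had a peak at 8, 4, 9 and 7 ribosomal protein genes (7.00 ± 2.16), and the 4 of replicate 2, the shortest list of the group, overlapped with the empty-vector range. In means, 9.09% of the ribosomal protein genes and 12% of all genes had a peak with HA-T354M, against 2.92% and 6.37% with the empty vector. At the marker loci, HA-T354M libraries had peaks at 9.50 ± 0.577 erythroid, 1.00 ± 0.816 lymphoid and 0.25 ± 0.50 neutrophil and monocyte loci. The difference was 4.75 genes (exact permutation p = 0.0571, adjusted p = 0.0762). The share of peaks was 0.147% ± 0.0268 (exact permutation p = 0.0571, adjusted p = 0.0762). RPS12 alone stood at 4 of 4 against 0 of 4, or 1.30% of these genes against 0.756% of all genes, and none stood the other way (0.00501%). A larger number of libraries was found with HA-T354M for 11 ribosomal protein genes (14.3%, against 12.8%) and with the empty vector for 2 (2.60%, against 1.41%). Fisher's exact test called 0 of 3752 genes (smallest adjusted p = 0.705, 152 unadjusted). Without HA-T354M replicate 2, or without empty-vector replicate 4, 2 genes stood at all against none. Without empty-vector replicate 1 the difference was 4.33 genes. On lists of equal length the sign turned, with means of 0.25 and 0.75 genes. With a -log10 q of at least 15 the difference was 3.00 genes (exact permutation, adjusted p = 0.0381).

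HA-GATA2 was then set directly against HA-T354M, to ask what the mutation changes. The number of ribosomal protein genes differed by 2.25 (exact permutation p = 0.286), and the ranges of 7 to 12 and 4 to 9 overlapped. On lists of equal length the sign turned, with means of 1.00 and 2.25 genes. In means, 12% of ribosomal protein genes and 19.97% of all genes had a peak with HA-GATA2, and 9.09% and 12% with HA-T354M. Of all peaks, those at ribosomal protein genes were a smaller share with HA-GATA2, by 0.055 percentage points (0.0921% against 0.147%, exact permutation p = 0.0286, adjusted p = 0.0571). The libraries did not overlap, by a narrow margin: the highest HA-GATA2 share was 0.109% and the lowest HA-T354M share 0.111%. Peaks at any listed start were 8.51% ± 1.05 and 11.3% ± 3.98 of all peaks. With a -log10 q of at least 15 the difference in share was -0.0392 percentage points (exact permutation, adjusted p = 0.0381). Before adjustment that p was 0.0286, as in the main setting. RPS3 alone stood at 4 of 4 against 0 of 4 (1.30%, against 2.19% of all genes), and none stood the other way (0.00501%). Without HA-GATA2 replicate 1, HA-GATA2 replicate 4 or HA-T354M replicate 4, 2 genes did, and without HA-T354M replicate 2 there was 1 in the other direction. A larger number of libraries was found with HA-GATA2 for 10 ribosomal protein genes (13.0%, against 17.1% of all genes) and with HA-T354M for 7 (9.09%, against 2.60%). Fisher's exact test called 0 of 5439 genes (smallest adjusted p = 0.354, 439 unadjusted). The 3 anti-GATA2 comparisons with the empty vector share its libraries, and this one shares the libraries of both tagged proteins with them.

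With anti-HA, which sees only the introduced protein, HA-GATA2 libraries had a peak at 2, 5, 6 and 0 ribosomal protein genes and HA-T354M libraries at 0, 0, 2 and 0. The empty-vector libraries, the background of this antibody, had none. The difference between the tagged proteins was 2.75 genes (3.25 ± 2.75 against 0.50 ± 1.00, n = 4, exact permutation p = 0.257), and the groups overlapped. That is 4.22% against 0.649% of the ribosomal protein genes, where 9.72% against 1.68% of all genes had a peak. As a share of peaks the values were 0.0623% ± 0.048 and 0.0672% ± 0.134 (exact permutation p = 1). No ribosomal protein gene stood at 4 of 4 against 0 of 4, while 2.16% of all genes did for HA-GATA2 and 0% for HA-T354M. Without HA-GATA2 replicate 4, the shortest list of its group, 1 gene, RPS29, did. A larger number of libraries was found with HA-GATA2 for 7 (9.09%, against 14.4%) and with HA-T354M for 2 (2.60%, against 0.180%). Fisher's exact test called 0 of 3075 genes (smallest adjusted p = 0.204, 431 unadjusted).

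In HA-GATA2 cells, 14 ribosomal protein genes (18.2%, against 25.4% of all genes) had a peak in at least 1 anti-GATA2 library. With anti-HA, 7 did in at least 1 library (9.09%, against 15.3% of all genes). Shared were 5, RPL18, RPS3, RPS6, RPS12 and RPS29, which is 35.7% of the first set and 71.4% of the second. RPL7 and RPS23 were found with anti-HA alone. In HA-T354M cells the sets held 12 genes (15.6%, against 17.9% of all genes) and 2 genes (2.60%, against 3.07%). Both anti-HA genes, RPS9 and RPS15, were in the anti-GATA2 set, of which they were 16.7%. The overlap of the antibodies over all genes is not given, so these overlaps do not compare ribosomal protein genes with other genes. The anti-HA peaks of RPS9 and RPS15 both came from replicate 3. RPS6, RPS15, RPS23 and RPL7 are named here after their values were seen, as are RPL26, RPL27, RPLP1 and RPLP2 elsewhere.

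Wild-type and HA-GATA2 anti-GATA2 libraries were also set side by side. This comparison was chosen after the values were seen, and the group means were not tested. Fisher's exact test, gene by gene, called 0 of 6568 genes (smallest adjusted p = 0.420, 447 unadjusted). All protein-coding genes had a peak at a similar rate in both, 19.7% ± 2.81 and 19.97% ± 3.38 (n = 4). Ribosomal protein genes had one at 20.1% ± 4.04 in wild-type and 12% ± 3.42 with HA-GATA2, and the library values did not overlap. RPS9 was among 2 genes that stood at 4 of 4 against 0 of 4 (2.60%, against 0.636% of all genes), and none stood the other way (1.60%). More libraries with a peak in wild-type were found for 19 ribosomal protein genes (24.7%, against 11.6%), and more with HA-GATA2 for 5 (6.49%, against 9.63%). RPL27, with a peak in 3 HA-GATA2 libraries and no other, and RPS3 are among the 5. On lists of equal length, of 6555 peaks, the means were 11 and 5 genes, and with a -log10 q of at least 15 the difference was 1.75 genes in place of 6.25.

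Gene starts in general showed values in the same direction. Of all peaks, 17.0% to 21.4% lay within 1 kb of a listed protein-coding start in the wild-type libraries, 6.95% to 10.1% in the empty-vector libraries, 7.50% to 9.56% with HA-GATA2 and 5.51% to 14.0% with HA-T354M (anti-GATA2). Of the 62 ribosomal protein starts, 16.1% ± 1.32 had a peak in wild-type libraries, against 10.3% ± 2.39 of all starts. With HA-GATA2 the shares were 8.87% ± 3.09 and 6.22% ± 1.83, with HA-T354M 7.26% ± 3.36 and 4.16% ± 2.09, and with the empty vector 1.21% ± 2.42 and 1.45% ± 0.803. The part of this general shift in the ribosomal protein counts was not tested.

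**Figure D5:**
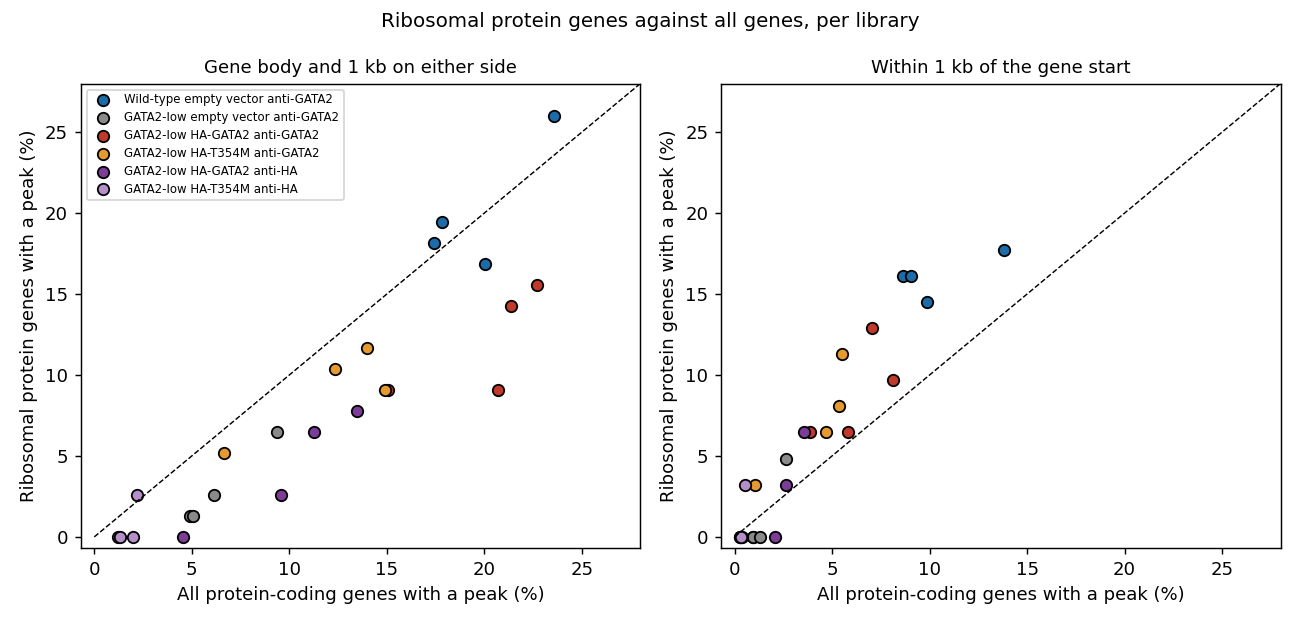
Percent of ribosomal protein genes with a peak (y axis) against percent of all protein-coding genes with a peak (x axis) in each library (points, coloured by group), for gene bodies with 1 kb on either side (left) and for the 1 kb around gene starts (right); the dashed line marks equal shares. At gene bodies all 12 anti-GATA2 points of GATA2-low cells lie below the line and 3 of 4 wild-type points above it, and at gene starts all 4 points of the wild-type, HA-GATA2 and HA-T354M anti-GATA2 groups lie above it.

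Ribosomal protein peaks, like other peaks at gene starts, ranked in the lower part of their lists. The median percentile by -log10 q was 14.2 to 30.1 in the 4 wild-type libraries, where the median of all peaks at gene starts was 24.97 to 27.9. It was 13.1 to 47.0 with HA-GATA2, where that of start peaks was 22.3 to 24.8, and 19.9 to 33.2 with HA-T354M, where that of start peaks was 19.1 to 29.8. The ribosomal protein median was the higher one in 3 of 4 libraries of each of these groups and in 1 of 4 wild-type libraries. With body sites in 1 set only, this does not compare ribosomal protein starts with other starts. The median fold in the wild-type libraries was 6.41 to 7.45 for ribosomal protein peaks, 6.82 to 7.38 for all peaks at gene starts and 10.8 to 12.3 for all peaks.

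By role, 8 of the 19 Diamond-Blackfan anaemia genes had a peak in some library: RPS29, RPL18, RPL35, RPS19, RPL26, RPL27, RPL5 and RPL11. That is 42.1%, against 41.6% of all ribosomal protein genes and 33.6% of all genes. Per library, 5 ± 0.816 of them had one in wild-type, 1.25 ± 0.50 with the empty vector, 4.75 ± 1.71 with HA-GATA2 and 3.00 ± 0.816 with HA-T354M (anti-GATA2, n = 4). As shares of the 19 these are 26.3%, 6.58%, 25% and 15.8%, where all ribosomal protein genes had 20.1%, 2.92%, 12% and 9.09%, and all genes 19.7%, 6.37%, 19.97% and 12%. The list was not tested against the others. Of the acidic stalk, which recruits translation factors, RPLP1 had a peak in 3 wild-type and 1 HA-GATA2 library and RPLP2 in 1 empty-vector library. FAU and RACK1, which encode ribosomal proteins under other symbols, had none. Of 8 paralogues that the symbol rule leaves out, RPL7L1 had a peak in 3 libraries and RPL36AL in 1.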

How the data were processed

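CUT&Tag peak lists of 28 libraries in 7 groups of 4 were analysed. The IgG libraries were not analysed here. Per the submitters' processing notes, FastQC, cutadapt 3.3, Bowtie2 2.2.5, deepTools 3.5.3, MACS2 2.2.7.1 and hg38 were used, with settings not given in the sources used here. Each deposited list, 1 per library, holds for each peak a score (10 times the -log10 q), the fold enrichment (a ratio over local background), the -log10 p and -log10 q and the summit, all as the authors' peak caller gave them.

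Of 120964 peaks, 120509 on chromosomes 1 to 22 and X were used. Summits were assigned to RefSeq genes (body and 1 kb on either side). Fragments and background were recovered from fold and -log10 p for 95.4% to 100% of peaks per library. Group means were compared by exact two-sided permutation tests (70 splits, Benjamini-Hochberg over the 4 anti-GATA2 comparisons, the anti-HA comparison alone). Single genes were compared by Fisher's exact test, adjusted over all genes with a peak in the libraries compared. The steps were tested on simulated data.

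The members and gene lists were chosen with earlier results of these data known. Named were genes with a peak in all 4 libraries of a group, RPS19, RPL5, RPL11, RPS14, RPL13A and RPLP0 regardless of values, and up to 4 genes of each other list. Some genes that meet this rule are not reported here by name. Alternatives were a 10 kb window, gene starts, a -log10 q of at least 15, lists of equal length, thinning over 25 draws, genes whose window is their own, each library left out, and pairing by number. No 2 lists were identical. Python 3.11.15, numpy 2.4.6, pandas 2.3.3, scipy 1.17.1 and matplotlib 3.10.9 were used.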

Additional observations from a re-analysis of the deposited data

Results flagged for a closer look

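HA-T354M anti-HA replicate 3 stood apart from the other 3 libraries of its group. It had a peak at 2 ribosomal protein genes, RPS9 and RPS15, and 0.2688% of its peaks lay at such genes, where the others had 0. Its list of 744 peaks was the longest of the group. Over the groups and these 2 measures, 12 sets of 4 values were examined, and both flags came from this library. Chance alone flags about 1 in 20 sets, a rate that does not hold where the other 3 values are all 0.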

How the results depend on the processing

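With a -log10 q of at least 15, the difference in ribosomal protein genes passed the adjusted threshold for wild-type (6.5 genes), HA-GATA2 (4.75) and HA-T354M (3.00), each against the empty vector. So did the share of peaks for wild-type (0.109 percentage points) and HA-T354M (0.077) against the empty vector and for HA-GATA2 against HA-T354M (-0.0392), while the anti-HA share turned to 0.0431. All 3 differences in genes were smaller than in the main setting. For genes and shares alike, the adjusted p fell because HA-T354M against the empty vector also reached an unadjusted exact permutation p of 0.0286. The other differences that passed had that p in both settings. With a 10 kb window the same 3 shares passed, at 0.285, 0.160 and -0.0874, and the anti-HA share turned to 0.0247. The genes at 4 of 4 against 0 of 4 numbered 8, 5 and 2 there for wild-type and HA-GATA2 against the empty vector and HA-GATA2 against HA-T354M. No share of all genes stands beside the counts of this setting or of those below. These counts thus do not compare ribosomal protein genes with other genes. On lists of equal length the HA-T354M difference from the empty vector turned to -0.50 genes and -0.0274 percentage points, HA-GATA2 against HA-T354M to -1.25 genes, and 0 genes stood at 4 of 4 against 0 of 4 in the 4 anti-GATA2 comparisons. Thinned to a common background, the share for HA-GATA2 against the empty vector turned to -0.00456, and the genes at 4 of 4 against 0 of 4 averaged 0.88, 1.20 and 0.32 for wild-type, HA-GATA2 and HA-T354M against the empty vector. The adjusted p of the difference in genes was then 0.114, 0.114 and 0.286 in the same order (exact permutation). At gene starts alone HA-GATA2 against HA-T354M had 0 such genes, and with genes whose window is their own it had 0 and HA-GATA2 against the empty vector 1. The cause of these changes was not tested. Leaving out 1 library, the differences in genes were 11.75 to 14.17, 6.08 to 7.92, 4.08 to 5.75, 1.25 to 3.00 and, for anti-HA, 1.83 to 3.83, in the order of the report. The shares differed by 0.131 to 0.160, -0.000404 to 0.0279, 0.0546 to 0.0828, -0.067 to -0.0448 and -0.0273 to 0.0623. They turned without empty-vector replicate 2 (-0.000404), without HA-GATA2 anti-HA replicate 4 (0.0159) and without HA-T354M anti-HA replicate 3 (0.0623). Genes at all against none numbered 3 to 5, 3 to 4, 1 to 2, 1 to 2 and 0 to 1, and in the other direction 0 to 1 for HA-GATA2 against HA-T354M. With the replicate number as a block the values stayed and no call changed. For the numbers of genes the exact permutation p within pairs was 0.125 for the first 3 comparisons, the smallest that 4 pairs allow, then 0.50 and 0.25. For the shares it was 0.125, 0.875, 0.25 and 0.125 in the 4 anti-GATA2 comparisons. Same-numbered libraries correlated at -0.0431 to 0.120 in their deviations, and 1 or 2 of 4 libraries per comparison correlated best with their own number. The labels do not say whether the numbers pair the libraries. Correlations of peak presence in so few libraries cannot settle it. In all, 296 recomputed values stayed on their side, 32 moved, 9 turned and 9 came to pass. Those that stayed include counts that were 0 and remained 0. They also include values that shrank, such as wild-type against the empty vector, from 13.25 to 0.5 genes on lists of equal length. The tally thus does not measure how stable the sizes are. Read totals are unknown, and a peak that is missing from a short list was not detectable there, which does not show that it is absent.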

Other observations

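Other genes of protein synthesis were also examined. Of 34 translation factors, 17 had a peak in some library (50%), and of 40 genes of ribosome assembly and RNA polymerase I also 17 (42.5%), against 41.6% of the ribosomal protein genes and 33.6% of all genes. Of the 34 translation factors, 11.5 ± 0.577 (SD, n = 4) had a peak per wild-type library, 1.25 ± 2.5 with the empty vector, 6.75 ± 1.71 with HA-GATA2 and 5 ± 2.94 with HA-T354M (anti-GATA2). EEF1A1, which brings aminoacyl-tRNA to the ribosome, and PABPC1, which binds the poly(A) tail, each had one in 17 of the 28 libraries, and EIF3H and EIF5A in 15. Of the 40 assembly genes, 9 ± 2.31, 1.00 ± 1.41, 6.25 ± 2.87 and 2.00 ± 0.816 had a peak in the same order. HEATR1, a factor of ribosomal RNA transcription and processing, had one in 15 libraries, and POLR1C, a subunit of RNA polymerases I and III, in 4 of 4 wild-type, 2 of 4 empty-vector, 4 of 4 HA-GATA2 and 0 of 4 HA-T354M libraries.

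Of the 77 genes of mitochondrial ribosomal proteins, 24 had a peak in some library (31.2%). Per anti-GATA2 library these were 16.0 ± 1.41 in wild-type, 3.75 ± 1.5 with the empty vector, 13.5 ± 1.00 with HA-GATA2 and 8.75 ± 3.40 with HA-T354M (n = 4). MRPS6 had a peak in 20 libraries, MRPS25 in 19, MRPL35 in 18 and MRPL37 in 14. The lists differ in gene length and were not tested against each other.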
